A study of Rattus norvegicus with 8 samples.

Results

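The genes described here encode the subunits of AMP-activated protein kinase (AMPK) and the main kinases that switch it on. They are Prkaa1 and Prkaa2 (catalytic alpha subunits), Prkab1 and Prkab2 (scaffolding beta subunits), Prkag1 and Prkag2 (nucleotide-binding gamma subunits), Stk11, which encodes LKB1, and Camkk2. Every probe set whose only gene symbol in the platform annotation was one of these was taken, which gave 17 probe sets of 8 genes out of 31042 probe sets tested and 14217 genes with a probe set of their own. The series measured liver transcripts on an Affymetrix rat expression array, 8 h after injection of male Sprague-Dawley rats that weighed 180 to 200 g. The 4 groups of 2 arrays each were dexamethasone plus AICAR, dexamethasone alone, AICAR alone and vehicle. Dexamethasone, a synthetic glucocorticoid, was given at 1.5 mg/kg into muscle, and AICAR, a nucleoside that is taken up and phosphorylated to an AMP mimic, at 0.7 g/kg into the peritoneum. Saline took the place of whichever agent was not given, so vehicle rats received saline by both routes. The study asked whether AMPK alters the metabolic actions of glucocorticoids.

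AMPK is a complex of an alpha, a beta and a gamma subunit. Binding of AMP or ADP to the gamma subunit favours phosphorylation of the activation loop of the alpha subunit, by LKB1 when energy is low and by CaMKK2 when calcium rises. In liver the active kinase phosphorylates enzymes and regulators that shut down lipid and cholesterol synthesis and other energy-consuming pathways. The arrays measured transcript levels and say nothing of phosphorylation or kinase activity. Since AICAR acts on the protein complex, the question for these genes was whether either agent changed the amounts of the transcripts that encode it.

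Levels are log2 values from RMA, a procedure that scales arrays to a common distribution and gives 1 value per probe set and array. A difference was called at an adjusted p under 0.05 from limma, with Benjamini-Hochberg adjustment over all 31042 probe sets, and values after ± are standard errors of log2 differences (n = 2 arrays per group). Whether the arrays within a group are separate rats is not stated in the labels, and the p-values then reflect array-to-array spread, which may be technical. Exact permutation was not used for single probe sets, since its smallest two-sided p with 2 arrays against 2 is 0.333. Across probe sets the arrays of a group correlated at 0.997 to 0.998, against 0.979 to 0.993 between groups. All 7 matched hepatocyte markers averaged above 3.84, the lowest lower quartile of any array, in all 4 groups. The matched stellate cell, sinusoidal endothelial and cholangiocyte markers did so too. Markers of other cells moved with treatment, and these values stand beside the results below.

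Of the 17 probe sets, 5 were called in at least 1 of 6 comparisons and 12 in none. The matching share over all probe sets is not given here, but the combination against AICAR already called 30.8% of them. The count of 5 is therefore not read as a result about these genes. The 5 belonged to Prkaa1, Prkaa2, Prkab1 and Prkag2. Prkab2, Prkag1, Stk11 and Camkk2 had no call. Dexamethasone alone raised Prkaa2, AICAR lowered Prkab1 with or without dexamethasone, and 1 of 4 Prkag2 probe sets was lower after either agent alone but higher after both, each relative to vehicle. The shares of these genes called lay on both sides of the background share: 2 of 17 probe sets were called after dexamethasone alone (11.8%, against 18.4% of all probe sets), 3 after AICAR alone (17.6% against 12.9%) and 3 after both agents (17.6% against 26.9%), each set against vehicle. For the combination against dexamethasone 4 were called (23.5% against 20.1%), as were 4 for the combination against AICAR (23.5% against 30.8%). The interaction was called for 4 (23.5% against 15.6%); it subtracts the effect of dexamethasone in rats without AICAR from its effect in rats with AICAR. Only 1 of the 102 differences reached 2-fold, the interaction of the brightest Prkag2 probe set.

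The DNA upstream of the 4 genes with a call is shown so that their control regions can be read beside the expression values. RefSeq windows were found for 7 of the 8 genes, 8 windows in all, because Prkag2 has 2 annotated starts; they are given on the GRCr8 assembly as the 250 bases before each start, 5′ to 3′ on the strand of the gene. Capitals mark GC boxes, the letters GGGCGG or their reverse complement CCGCCC, which are read by SP-family factors. Prkaa1 lies on the plus strand (chr2:55967525-55967774), Prkaa2 on the minus strand (chr5:125108325-125108574), Prkab1 on the plus strand (chr12:46248845-46249094), and the 2 Prkag2 starts on the plus strand (chr4:10744445-10744694 and chr4:10939230-10939479).
Prkaa1: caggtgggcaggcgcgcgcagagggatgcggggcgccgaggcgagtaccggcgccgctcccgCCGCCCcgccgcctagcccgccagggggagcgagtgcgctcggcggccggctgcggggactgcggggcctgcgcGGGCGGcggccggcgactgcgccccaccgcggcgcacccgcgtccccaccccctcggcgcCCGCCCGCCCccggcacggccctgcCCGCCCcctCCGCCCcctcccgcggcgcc
Prkaa2: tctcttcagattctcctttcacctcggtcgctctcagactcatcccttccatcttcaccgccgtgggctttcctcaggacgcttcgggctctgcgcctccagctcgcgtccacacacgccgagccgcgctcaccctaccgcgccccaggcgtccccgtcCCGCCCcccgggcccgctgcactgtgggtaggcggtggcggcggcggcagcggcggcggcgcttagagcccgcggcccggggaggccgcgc
Prkab1: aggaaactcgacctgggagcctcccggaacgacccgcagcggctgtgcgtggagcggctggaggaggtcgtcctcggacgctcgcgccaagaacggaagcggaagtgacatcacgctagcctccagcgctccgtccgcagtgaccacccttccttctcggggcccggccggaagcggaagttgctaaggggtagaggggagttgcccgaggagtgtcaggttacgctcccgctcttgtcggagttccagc
Prkag2, first start: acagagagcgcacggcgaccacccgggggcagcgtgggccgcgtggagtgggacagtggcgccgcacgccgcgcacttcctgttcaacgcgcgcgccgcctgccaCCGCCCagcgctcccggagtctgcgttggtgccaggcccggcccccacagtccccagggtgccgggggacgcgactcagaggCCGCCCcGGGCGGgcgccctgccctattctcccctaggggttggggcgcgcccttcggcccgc
Prkag2, second start: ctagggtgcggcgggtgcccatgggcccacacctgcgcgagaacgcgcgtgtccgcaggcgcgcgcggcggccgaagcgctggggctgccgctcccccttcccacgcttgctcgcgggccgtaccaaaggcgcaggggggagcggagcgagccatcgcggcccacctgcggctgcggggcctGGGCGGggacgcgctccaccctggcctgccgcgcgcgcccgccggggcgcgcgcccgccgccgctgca

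These windows are rich in G and C, at 86.4% for Prkaa1, 72.8% for Prkaa2, 66.0% for Prkab1, and 77.2% and 80.8% for the Prkag2 starts, against a median of 51.2% over 33469 windows of the same length. Windows of genes with no call had 76.0% for Prkab2, 58.8% for Prkag1 and 58.4% for Stk11. Of all windows, 28.9% had at least the share of Stk11, the lowest of the 8. GC boxes were found in 6 of the 8 windows and in 30.5% of all windows. There were 6 in Prkaa1, 1 in Prkaa2, 3 at the first Prkag2 start, 1 at the second and 0 in Prkab1. Among genes with no call there were 1 in Prkab2, 2 in Prkag1 and 0 in Stk11. The half-site of the glucocorticoid receptor, AGAACA or its reverse complement TGTTCT, was found in 1 of the 8 windows, that of Prkag1, and in 17.5% of all windows. The full palindrome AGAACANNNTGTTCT, which contains the half-site on both strands, was in none of the 8 and in 0.012% of all windows. The cyclic AMP response element TGACGTCA and the E-box CACGTG, each its own reverse complement, were also in none of the 8, against 1.59% and 5.59% of all windows. Both strands were searched, and a match or its absence in these letters is a description of the window alone.

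Prkaa2, the alpha 2 catalytic subunit gene, was the 1 gene of the 8 with a called rise after dexamethasone alone. Its probe set, 1369654_at, read 9.42 and 9.41 after both agents, 10.16 and 10.07 after dexamethasone alone, 9.33 and 9.40 after AICAR alone, and 9.36 and 9.35 in vehicle. The dexamethasone arrays stood above the other 6, which lay between 9.33 and 9.42. Dexamethasone alone raised Prkaa2 by 0.76 ± 0.07 over vehicle (1.69-fold, adjusted p = 0.000155). With AICAR present, the dexamethasone effect was 0.05 ± 0.07 (adjusted p = 0.666, combination against AICAR), and the difference between these effects was -0.71 ± 0.10 (interaction adjusted p = 0.00234). The combination was lower than dexamethasone alone (-0.70 ± 0.07, adjusted p = 0.000258). AICAR alone left Prkaa2 at 0.01 ± 0.07 from vehicle (95% interval -0.15 to 0.18).

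Prkaa1, the alpha 1 gene, has 3 probe sets that did not move together. The brightest, 1375970_at, read 8.09 and 8.08 after both agents, 7.97 and 7.80 after dexamethasone, 7.70 and 7.74 after AICAR, and 8.11 and 8.00 in vehicle. The AICAR arrays were the lowest, and the combination arrays fell inside the range of vehicle. AICAR alone lowered this probe set (-0.33 ± 0.08, adjusted p = 0.0353), the combination was higher than AICAR alone by 0.36 ± 0.08 (adjusted p = 0.0103), and the interaction was 0.53 ± 0.12 (adjusted p = 0.018). The combination differed from dexamethasone by 0.20 ± 0.08 (adjusted p = 0.14, and 0.0462 with a trended and robust prior). The fall after AICAR lost its call on cyclic loess scaling (adjusted p = 0.0869), on centring (adjusted p = 0.0679), in a fit of the compared groups alone (adjusted p = 0.064), and when a vehicle, AICAR or combination array was left out (adjusted p from 0.062 to 0.16). The difference between combination and AICAR lost its call without AICAR replicate 1 (adjusted p = 0.0607) or either combination array (adjusted p = 0.0564 and 0.052), and the interaction under cyclic loess (adjusted p = 0.0533) or without vehicle replicate 1 (adjusted p = 0.0606), AICAR replicate 1 (adjusted p = 0.063) or either combination array (adjusted p = 0.0623 and 0.0584).

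The other Prkaa1 probe sets were not called in any comparison. One of them, 1369104_at, read 5.01 and 5.01 after both agents, 4.64 and 4.81 after dexamethasone, 5.38 and 5.20 after AICAR, and 4.72 and 5.15 in vehicle, so AICAR stood highest here and lowest for the brightest probe set. Its difference from vehicle after AICAR was 0.36 ± 0.14 (adjusted p = 0.127), and without vehicle replicate 2 it was 0.57 (adjusted p = 0.0322). An F test from limma over the 4 groups together gave 1369104_at an adjusted p of 0.0465. The third, 1394921_at, lay between 2.74 and 3.20 on all 8 arrays, below 3.84. Over the 8 arrays the correlation with the brightest probe set was -0.53 for 1369104_at and -0.47 for 1394921_at, as a description of 8 arrays that share 4 treatments. When the 3 probe sets were averaged, AICAR differed from vehicle by 0.08 (adjusted p = 0.565), and the combination from AICAR by -0.04 (adjusted p = 0.786).

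**Figure D1:**
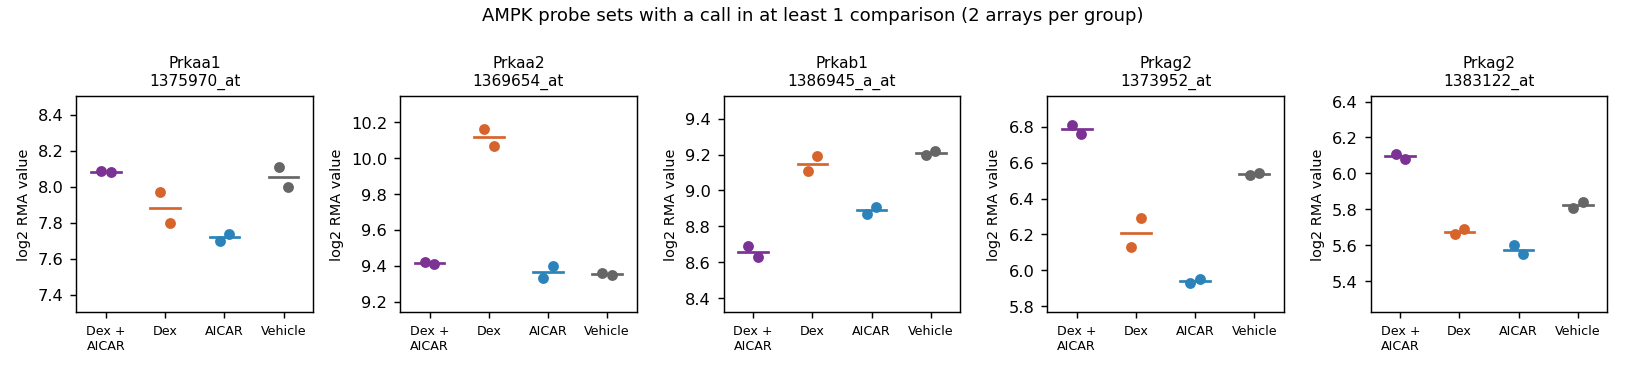
Log2 RMA value (vertical axis, 1.2 units high in each panel) on each of the 8 arrays for the 5 probe sets called in at least 1 comparison, by treatment group (horizontal axis). Points are arrays and lines are group means of 2 arrays; Prkaa2 is high in the dexamethasone arrays (10.16 and 10.07), Prkab1 is low in the combination (8.69 and 8.63), and both Prkag2 probe sets are highest in the combination and lowest after AICAR.

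Prkab1, the beta 1 gene, was lower wherever AICAR was given. The beta subunit holds the complex together and binds glycogen. Probe set 1386945_a_at read 8.69 and 8.63 after both agents, 9.11 and 9.19 after dexamethasone, 8.87 and 8.91 after AICAR, and 9.20 and 9.22 in vehicle. No 2 groups overlapped, and the order from high to low was vehicle, dexamethasone, AICAR, combination. Against vehicle, the combination fell by 0.55 ± 0.07 (1.46-fold lower, adjusted p = 0.000596) and so did AICAR alone (-0.32 ± 0.07, adjusted p = 0.023). In rats that had dexamethasone, adding AICAR lowered Prkab1 (-0.48 ± 0.07, adjusted p = 0.00184). Dexamethasone alone gave -0.06 ± 0.07 (adjusted p = 0.623), and the interaction was -0.16 ± 0.10 (adjusted p = 0.344).

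The 2 smaller Prkab1 calls were less secure. The fall after AICAR alone lost its call in a fit of only the compared groups (adjusted p = 0.0555) and when a vehicle or AICAR array was left out (adjusted p from 0.0777 to 0.123). The combination was lower than AICAR alone (-0.22 ± 0.07, adjusted p = 0.0444), and this call ended in a fit of only those groups (adjusted p = 0.0575), with a replicate block (adjusted p = 0.0608) and when a vehicle, AICAR or combination array was left out (adjusted p from 0.06 to 0.203). The order of the groups was also that of the RNA quality control for actin. The log2 difference between its 3′ and 5′ probe sets averaged 1.80 after both agents, 2.04 after dexamethasone, 1.82 after AICAR and 2.23 in vehicle, and its part in the Prkab1 result was not tested. The same control for GAPDH averaged 0.33 after both agents, 0.42 after dexamethasone, 0.39 after AICAR and 0.61 in vehicle, in the same order. That for hexokinase had another order, at 1.69 after both agents, 1.53 after dexamethasone, 1.79 after AICAR and 1.58 in vehicle.

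Prkag2, the gamma 2 gene, had the largest interaction among the 17 probe sets. Gamma subunits sense energy state by binding AMP, ADP and ATP. The brightest of its 4 probe sets, 1373952_at, read 6.81 and 6.76 after both agents, 6.13 and 6.29 after dexamethasone, 5.93 and 5.95 after AICAR, and 6.53 and 6.54 in vehicle. No 2 groups overlapped. AICAR alone lowered it (-0.60 ± 0.08, 1.51-fold lower, adjusted p = 0.00243) and so did dexamethasone alone (-0.33 ± 0.08, adjusted p = 0.0212), while the combination was higher than vehicle by 0.25 ± 0.08 (adjusted p = 0.0461). Dexamethasone therefore moved this probe set by 0.85 ± 0.08 in rats that had AICAR (1.80-fold higher, adjusted p = 7.78e-05), and the interaction was 1.17 ± 0.11 (2.25-fold, adjusted p = 0.000297). Adding AICAR to dexamethasone raised it by 0.57 ± 0.08 (adjusted p = 0.00117).

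A second probe set, 1383122_at, followed the same order. It read 6.11 and 6.08 after both agents, 5.66 and 5.69 after dexamethasone, 5.60 and 5.55 after AICAR, and 5.81 and 5.84 in vehicle. Its interaction was 0.66 ± 0.10 (adjusted p = 0.00283), and it was higher after the combination than after AICAR (0.52 ± 0.07, adjusted p = 0.000614), after dexamethasone (0.42 ± 0.07, adjusted p = 0.00317) or in vehicle (0.27 ± 0.07, adjusted p = 0.0187). The falls after single agents did not pass for this probe set, at -0.24 ± 0.07 for AICAR (adjusted p = 0.0542, and 0.0376 under cyclic loess and 0.033 with dim probe sets left out) and -0.15 ± 0.07 for dexamethasone (adjusted p = 0.199). Across the 8 arrays these 2 probe sets correlated at 0.96.

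The remaining pair of Prkag2 probe sets did not share the pattern. Probe set 1381728_at lay between 4.78 and 5.16 and 1392263_at between 4.67 and 4.94 over the 8 arrays. Neither was called in any comparison, and their correlations with 1373952_at over the 8 arrays were 0.18 and -0.64. Which transcripts of Prkag2 each probe set reads was not tested. With all 4 probe sets averaged, the combination was still higher than AICAR alone (0.34, adjusted p = 0.00521) and the interaction was still called (0.40, adjusted p = 0.0245). The averaged differences of AICAR (-0.21, adjusted p = 0.0803), dexamethasone (-0.06, adjusted p = 0.624) and the combination (0.13, adjusted p = 0.209) from vehicle were not called, nor was that of the combination from dexamethasone (0.19, adjusted p = 0.0874).

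For 1373952_at, the smaller calls did not hold in every fit, although the estimates kept their sign. Across all alternative fits the fall after dexamethasone lay between -0.41 and -0.24. The rise of the combination over vehicle lay between 0.23 and 0.28. The fall after dexamethasone was lost in a fit of only the compared groups (adjusted p = 0.0676) and when either vehicle array (adjusted p = 0.0762 and 0.0905) or the first dexamethasone array (adjusted p = 0.102) was left out. The rise of the combination over vehicle was lost in a fit of only those groups (adjusted p = 0.0508), with a replicate block (adjusted p = 0.0591) and when a vehicle, AICAR or combination array was left out (adjusted p from 0.0686 to 0.195). For 1383122_at that rise was lost when a vehicle or combination array was left out (adjusted p from 0.0594 to 0.107). The interaction of both probe sets, and their rise in the combination over each single agent, stayed called when each of the 8 arrays was left out in turn.

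**Figure D2:**
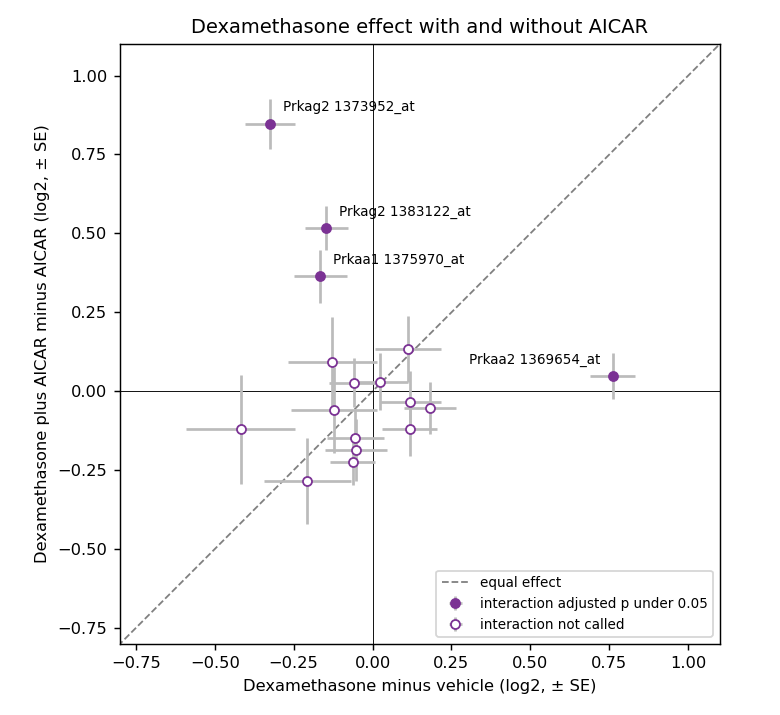
The log2 effect of dexamethasone in rats given AICAR (vertical axis) against its log2 effect in rats not given AICAR (horizontal axis) for the 17 probe sets, with lines of 1 standard error and a dashed line where the effects are equal. Filled points have a called interaction: Prkaa2 lies to the right (0.76 without and 0.05 with AICAR), and 2 Prkag2 probe sets and 1 of Prkaa1 lie above the line, led by 1373952_at (-0.33 without and 0.85 with AICAR).

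Markers of other liver cells differed between the same groups. Of 11 matched Kupffer cell and macrophage markers, 10 were lower and 1, Lyz2, was higher after both agents than in vehicle, with a median of -4.02 against 0.01 for all probe sets. Their summed level on the log2 scale ran from 11.08 to 11.10 after both agents, 11.90 to 12.04 after dexamethasone, 12.80 to 12.82 after AICAR and 12.64 to 12.66 in vehicle. After both agents 4 of the 11 averaged below 3.84, among them the defining marker Cd5l (3.12, against 9.80 in vehicle). In whole liver, fewer cells of a type and less RNA per cell cannot be told apart. The summed hepatocyte markers stayed between 16.76 and 16.85 on all 8 arrays, while stellate cell markers summed to 11.63 to 11.66 after both agents, 11.73 to 11.81 after dexamethasone, 12.30 after AICAR and 12.02 in vehicle. Such a sum weights the brightest markers most. Of the 7 hepatocyte markers, 2 were higher after both agents, 1 was higher after dexamethasone and 1 was lower after AICAR, each against vehicle. Of the 10 stellate cell markers, 5 were higher and 3 lower after both agents than in vehicle (median 0.20). After dexamethasone alone 2 were higher and 3 lower (median 0.10). Lymphocyte markers summed to 8.10 to 8.12 after both agents, 8.32 to 8.45 after dexamethasone, 8.74 to 8.79 after AICAR and 8.94 to 8.95 in vehicle, and sinusoidal endothelial markers to 11.50 to 11.51 after both, 11.41 to 11.44 after dexamethasone, 11.79 to 11.80 after AICAR and 11.93 to 11.98 in vehicle. Of all probe sets, 26.9% were called after both agents, 18.4% after dexamethasone alone and 12.9% after AICAR alone, each against vehicle. After both agents against vehicle, 9 of 12 lymphocyte, 4 of 8 endothelial and 3 of 5 erythroid markers were lower. In that comparison 1 of 5 cholangiocyte markers was higher, and 1 of 5 skeletal muscle markers was higher and 1 lower. After dexamethasone alone against vehicle, 9 of 11 Kupffer markers were lower and 1 was higher (median -0.96), and 6 of 12 lymphocyte, 5 of 8 endothelial and 3 of 5 erythroid markers were lower. After AICAR alone, 4 Kupffer markers were higher and 1 lower (median 0.27), and 6 of 10 stellate cell markers were higher. The part of these shifts in the Prkaa2, Prkag2, Prkaa1 and Prkab1 results was not tested.

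Prkag1 and Prkab2, the other gamma and beta genes, had no call. Prkag1 is the widely expressed gamma subunit, and its probe set 1367947_at read 8.08 and 8.11 after both agents, 7.81 and 7.96 after dexamethasone, 8.08 and 8.05 after AICAR, and 7.92 and 7.97 in vehicle. Its largest difference was 0.21 ± 0.08 for the combination against dexamethasone (adjusted p = 0.102, and 0.0283 with a trended and robust prior), and over the 5 pairwise comparisons the 95% intervals ran from -0.24 to 0.39. Prkab2 was read by 2 probe sets. Probe set 1378845_at lay between 4.46 and 4.80 and 1369271_at between 3.62 and 4.09 over the 8 arrays, and the intervals of their pairwise differences ran from -0.43 to 0.45.

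Stk11, the LKB1 gene, was read by 3 probe sets with no call. Probe set 1375364_at read 4.31 and 4.41 after both agents, 4.28 and 4.43 after dexamethasone, 4.58 and 4.44 after AICAR, and 4.36 and 4.45 in vehicle. The groups overlapped in each of the 5 pairwise comparisons fitted except the combination against AICAR, where both combination arrays were lower. Both dexamethasone arrays also lay below both AICAR arrays, a pair that was not among those fitted. The others, 1375238_at (3.38 to 3.67) and 1381830_x_at (3.37 to 3.70), averaged below 3.84 in all 4 groups, and the suffix of the latter marks probes that can bind other transcripts. The 95% intervals of all Stk11 pairwise differences ran from -0.35 to 0.40, with a lowest adjusted p of 0.133.

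Camkk2, the gene of the calcium-dependent upstream kinase, had wider intervals. Probe set 1375025_at read 4.66 and 4.92 after both agents, 5.10 and 4.52 after dexamethasone, 4.95 and 4.87 after AICAR, and 5.16 and 5.30 in vehicle. All treated arrays lay below both vehicle arrays, but the dexamethasone pair differed by more than the groups did. Against vehicle the combination stood at -0.44 ± 0.17 (adjusted p = 0.0969), dexamethasone at -0.42 ± 0.17 (adjusted p = 0.14) and AICAR at -0.32 ± 0.17 (adjusted p = 0.268). Without dexamethasone replicate 1 the dexamethasone difference was -0.71 (adjusted p = 0.0135). The difference of the combination was called without either dexamethasone array (adjusted p = 0.0204), with a trended and robust prior (adjusted p = 0.036) and in a fit of the compared groups alone (adjusted p = 0.0322). The other probe set, 1368753_at, lay between 3.56 and 4.13 and had no call in any of these fits.

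**Figure D3:**
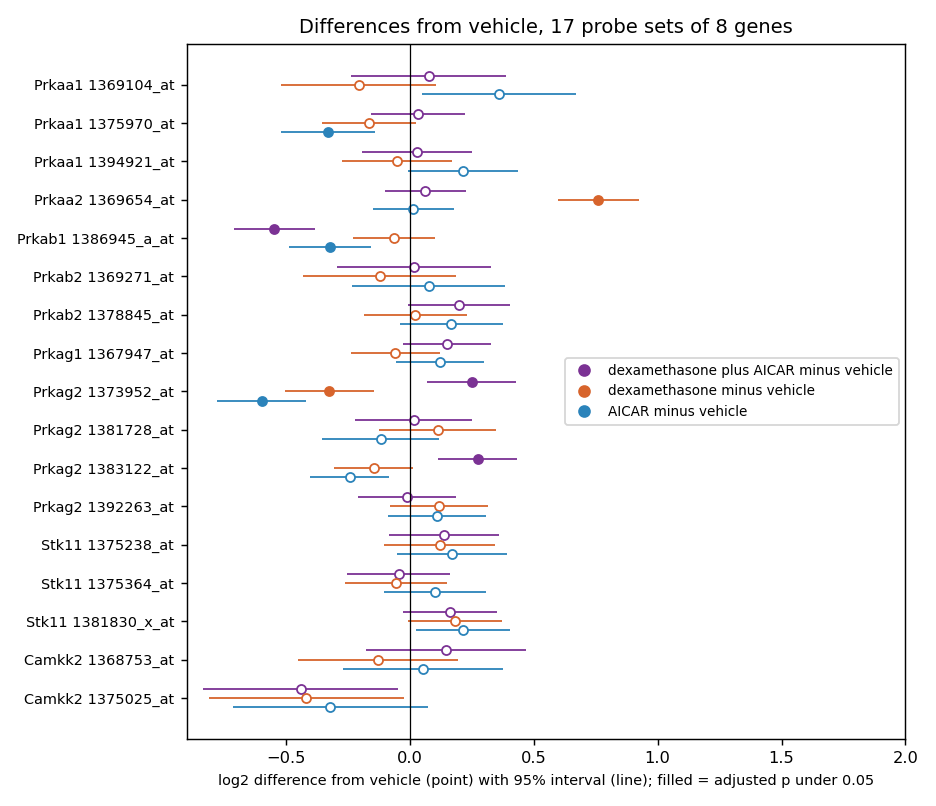
Log2 differences from vehicle (horizontal axis) for the 17 probe sets (vertical axis), with 95% intervals from limma and n = 2 arrays per group. Filled points passed the adjusted p of 0.05; they are Prkaa2 after dexamethasone (0.76), Prkab1 after AICAR (-0.32) and after both (-0.55), Prkaa1 1375970_at after AICAR (-0.33), and 2 Prkag2 probe sets.

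**Figure D4:**
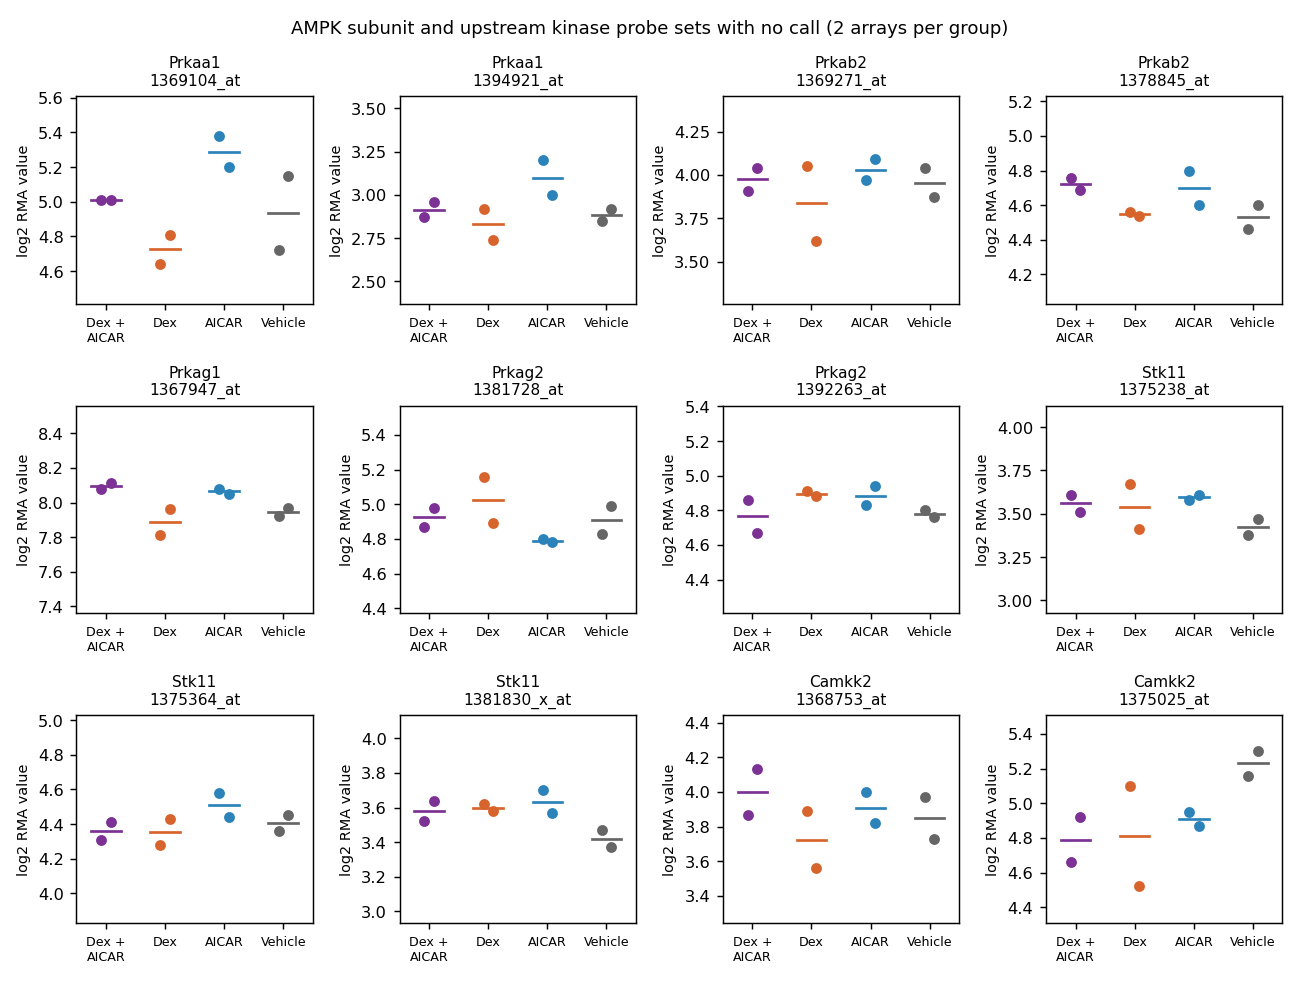
Log2 RMA value (vertical axis, 1.2 units high in each panel) on each of the 8 arrays for the 12 probe sets with no call, by treatment group (horizontal axis); points are arrays and lines are means of 2 arrays. The groups lie close together in most panels, and the spread within a pair is widest for Camkk2 1375025_at after dexamethasone (5.10 and 4.52).

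Genes that act next to AMPK were described from fixed lists, with 1 probe set per gene and no test of the list. Among 8 partners of LKB1 and other upstream kinases, none was called by limma after dexamethasone (1 had an unadjusted p under 0.05, against a background of 18.4% called), 1 was lower after AICAR (background 12.9%) and 3 were lower after both (background 26.9%), while 2 were higher and 4 lower in the combination against dexamethasone (background 20.1%). The median of the last comparison was -0.26, against 0.00 for all probe sets. LKB1 works in a complex with a STRAD pseudokinase and the scaffold MO25. The STRAD genes Strada (-0.67 ± 0.11, adjusted p = 0.0017) and Stradb (-0.38 ± 0.07, adjusted p = 0.00492) fell after both agents against vehicle, as did Tab2, a partner of the kinase TAK1 (-0.40 ± 0.07, adjusted p = 0.00297). The MO25 genes Cab39 (0.28 ± 0.07, adjusted p = 0.0294) and Cab39l (0.32 ± 0.09, adjusted p = 0.0342) were higher in the combination than after dexamethasone.

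Phosphatases that can act on the AMPK activation loop were called in both directions. Of 6 matched genes, 3 were lower after dexamethasone, 2 were higher and 2 lower after AICAR, and 2 were higher and 4 lower after both agents, each against vehicle, where 18.4%, 12.9% and 26.9% of all probe sets were called. Ppm1a, a PP2C phosphatase, fell by 0.50 ± 0.08 after dexamethasone (adjusted p = 0.00306) and fell by 0.46 ± 0.08 after both (adjusted p = 0.00292). Ppp2r1a, the scaffold of PP2A, rose by 0.46 ± 0.08 after AICAR (adjusted p = 0.00732) and fell by 0.45 ± 0.08 after dexamethasone (adjusted p = 0.0042). Ppp2ca, a catalytic subunit of PP2A, was higher after both agents than in vehicle (0.41 ± 0.07, adjusted p = 0.00281), with an interaction of 0.74 ± 0.10 (adjusted p = 0.00186), the same direction as Prkag2.

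Of 10 matched AMPK-related kinases that also depend on LKB1, 2 were higher after dexamethasone, 1 was lower after AICAR and none was called by limma after both agents against vehicle (0 had an unadjusted p under 0.05). Of all probe sets, the dexamethasone comparison called 18.4%, the AICAR comparison 12.9% and that of both agents 26.9%. None had a called interaction, against 15.6% of all probe sets. Although 5 of the 10 had an unadjusted p under 0.05 for it, the share of all probe sets at that level is not given here. Sik3, a salt-inducible kinase, rose by 0.35 ± 0.07 after dexamethasone (adjusted p = 0.00951), Mark3, a microtubule affinity kinase, rose by 0.31 ± 0.07 (adjusted p = 0.0185), and Sik2 fell by 0.34 ± 0.09 after AICAR (adjusted p = 0.0458). Prkag3, the gamma subunit of skeletal muscle, was not called in any comparison.

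Of 19 matched genes whose protein products AMPK phosphorylates, 7 were higher and 3 lower after dexamethasone, 1 was higher and 2 lower after AICAR, and 2 were higher and 4 lower after both, each against vehicle. The background shares were 18.4% for dexamethasone, 12.9% for AICAR and 26.9% for the combination. The interaction was called for 5 of the 19, 1 higher and 4 lower, against 15.6% of all probe sets, with a median of -0.17 against -0.01 for all probe sets. Like Prkaa2, Acaca, which encodes acetyl-CoA carboxylase 1, rose after dexamethasone (1.50 ± 0.07, adjusted p = 2.81e-06) and had an interaction below 0 (-2.30 ± 0.10, adjusted p = 3.98e-06), and it also rose after AICAR (0.67 ± 0.07, adjusted p = 0.000782). The autophagy kinase gene Ulk1 rose by 0.31 ± 0.07 after dexamethasone (adjusted p = 0.0164) and was lower after both agents than in vehicle (-0.63 ± 0.07, adjusted p = 0.000255). Tbc1d4, a regulator of glucose transporter traffic, fell by 1.26 ± 0.09 after both agents (adjusted p = 1.48e-05). The clock repressor gene Cry1 rose after both agents (0.78 ± 0.08, adjusted p = 0.000128) and after dexamethasone (0.85 ± 0.08, adjusted p = 0.00013), and fell after AICAR (-0.64 ± 0.08, adjusted p = 0.00176).

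For the 2 probe sets with the smallest p over the 4 groups, the genes of most similar pattern were taken by Pearson's r over the 8 arrays. They were picked from 5684 probe sets of 1 symbol whose group means spanned at least 0.5. For Prkaa2 they were Ly75 (r = 0.994), Pigu (r = 0.994), Sybu (r = 0.993) and Oas1b (r = 0.992). Each was high after dexamethasone alone, which follows from how they were picked. Ly75 averaged 4.96 after both agents, 7.84 after dexamethasone, 4.57 after AICAR and 4.79 in vehicle. Outside the dexamethasone group Oas1b averaged below 3.84, at 3.77 after both agents, 3.68 after AICAR and 3.71 in vehicle. For Prkag2 1373952_at they were Acox2 (r = 0.988), Mkks (r = 0.983), Nop58 (r = 0.982) and Kif13a (r = 0.979). Acox2, a peroxisomal oxidase gene of bile acid synthesis, averaged 11.04 after both agents, 10.12 after dexamethasone, 9.72 after AICAR and 10.80 in vehicle. The 8 arrays fall into 4 treatment groups, so r mostly describes likeness of 4 group means.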

How the data were processed

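Liver RNA was labelled and hybridised to Affymetrix arrays, per the labels' protocols. The authors deposited log2 values; the submitters' processing notes name RMA and affy without versions, and no genome build is given in the sources used here. That the logarithm has base 2 was read from the values (1.96 to 14.74, array medians 5.22 to 5.27). RMA gives no detection call and compresses fold changes of dim probe sets. Levels of different probe sets were not compared, except to name the brightest of a gene.

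Of 31099 rows, 57 array controls were left out. The platform annotation gave 20826 probe sets 1 symbol, 436 several and 9780 none here. All 17 probe sets kept their symbol in a RefSeq gene table (GRCr8), used for names alone. limma 3.58.1 in R 4.3.3 fitted 1 coefficient per group over all 8 arrays, without a replicate block, with 4 residual and 4.58 prior degrees of freedom. The code was tested on simulated data.

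The members and lists were chosen with earlier results of these data known. All probe sets of the 8 genes are reported. From 5 context lists, up to 4 called genes with the smallest p per comparison could be named, each by its brightest probe set; 8 marker lists are given by totals and defining markers. Of 120 listed genes, 107 matched. Alternatives were cyclic loess, centring on the brighter probe sets, leaving out dim probe sets, a trended robust prior, fitting the compared groups alone, the replicate block, a 2-fold minimum, averaging a gene's probe sets, and leaving out each array.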

Additional observations from a re-analysis of the deposited data

Results flagged for a closer look

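A difference between the dexamethasone effects with and without AICAR was tested for every probe set. Of the 17, 4 passed (23.5%, against 15.6% of all probe sets). For Prkaa2 1369654_at the interaction was -0.71 on the log2 scale, with a dexamethasone effect of 0.05 in rats that had AICAR and 0.76 in rats that did not. For Prkag2 1373952_at the interaction was 1.17 and for Prkag2 1383122_at it was 0.66, with levels highest in both arrays of the combination. For Prkaa1 1375970_at the interaction was 0.53, and the other Prkaa1 probe sets gave -0.08 and -0.13 with no call. Groups of 2 arrays are too small for a search for outlying arrays.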

How the results depend on the processing

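Of 20 calls for these probe sets, 12 held under cyclic loess, centring, the dim filter where the probe set passed it, the trended prior, the fit of compared groups, the replicate block and the removal of each array, and none changed sign; they were those of Prkaa2, the AICAR fall and the rises and interactions of Prkag2 other than the rise over vehicle, and the falls of Prkab1 in the combination against vehicle and against dexamethasone. Of 82 results not called, 6 were called under at least 1 alternative. With a 2-fold minimum the count of called member probe sets was 0 in each pairwise comparison and 1 for the interaction, and over all probe sets 605 for dexamethasone, 169 for AICAR and 964 for both against vehicle, 548 for the combination against dexamethasone, 1040 against AICAR and 767 for the interaction. A fit of only the compared groups called 1 member after dexamethasone and 1 after AICAR, and 2345 of all probe sets after AICAR in place of 4011; the trended prior called 6048 there. Removal of 1 array gave 1 to 2 called members after dexamethasone, 1 to 3 after AICAR, 1 to 4 after both, 4 to 4 for the combination against dexamethasone, 2 to 4 against AICAR and 3 to 4 for the interaction. Over all probe sets the same removals gave 3738 to 5303, 1447 to 3819, 5677 to 8386, 3698 to 5985, 6510 to 9596 and 2910 to 3991. The main counts were 5726, 4011, 8350, 6233, 9563 and 4858. With the replicate block the fall of Prkab1 in the combination against AICAR (adjusted p = 0.0608) and the rise of Prkag2 1373952_at over vehicle (adjusted p = 0.0591) lost their calls, and the block changed no other call; it gave 2, 3, 2, 4, 3 and 4 called members. The labels state no pairing by replicate number. Deviations of same-numbered arrays from their group means correlated at -0.04 to 0.16, highest for dexamethasone and vehicle. With 2 arrays per group these values cannot exclude a pairing. Averaging probe sets turned the sign of Prkaa1 after AICAR (0.081) and in the combination against AICAR (-0.035). Centring moved the share of called probe sets that were higher to 57.5% in place of 47.0% after dexamethasone, to 56.4% in place of 42.2% after AICAR and to 44.1% in place of 55.1% for the interaction. The causes were not tested. The number of arrays, 2 per group, limits all of these values.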
